A study of Mus musculus with 8 samples.

Results

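Chemokine ligands and receptors were examined in the pancreas of NOD mice, the strain that develops autoimmune diabetes spontaneously. The genes were chosen by name: every gene on the array whose symbol starts with Ccl, Cxcl, Xcl, Cx3cl, Ccr, Cxcr, Xcr, Cx3cr, Ccrl or Cmklr and a digit, without the lymphoid chemokines Ccl19, the Ccl21 genes and Cxcl13 and the receptor Ccr7. This gave 51 genes (32 ligands and 19 receptors) on 68 probes, of 21597 genes with a symbol on the array. Pancreas RNA of 8 female NOD mice, 12 weeks old, was labeled with Cy5 (red), and each mouse had its own two-color array. The other dye, Cy3 (green), carried the same RNA on every array, a pool made from 8 age-matched NOD.B10 mice. NOD.B10 mice share the NOD background but carry another haplotype at H2, the mouse major histocompatibility locus on chromosome 17, and do not become diabetic. Because the pool is a single RNA, the tests below cover the spread between NOD mice and not that between NOD.B10 mice. The dyes were not exchanged, so a dye effect at a probe and a strain difference cannot be told apart.

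Chemokines are small secreted proteins that guide leukocytes along concentration gradients, and their receptors are G protein-coupled receptors on the surface of the cells that follow them. Some ligands, such as the partners of CXCR3, are induced by interferon-γ and draw activated T-cells into tissue, whereas others, such as CXCL12, are made constantly by stromal cells. In autoimmune diabetes leukocytes gather around and inside the islets, which are a small share of the pancreas, and both the leukocytes and the endocrine cells can make chemokines. The RNA was taken from whole pancreas, where fewer cells of a type and less RNA per cell cannot be told apart.

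Stretches upstream of the start site are shown for Ccl8 and Cxcl9, ligands with a log2 ratio above 3 in 5 mice, for Cxcl10, which shares the receptor CXCR3 with Cxcl9, and for Ccr4, the gene with the smallest adjusted p. Each stretch is 250 bases long, ends just before the gene's start and is RefSeq sequence of build GRCm38.p6, which is the reference strain and not NOD. The Cxcl9 stretch is chr5:92328080-92328329, that of Cxcl10 is chr5:92348890-92349139 and that of Ccr4 is chr9:114496545-114496794, all on the minus strand, and that of Ccl8 is chr11:82114935-82115184 on the plus strand. Capitals mark matches, on either strand, to the letters of the interferon-stimulated response element (GAAANNGAAA), the gamma-activated site (TTCNNNGAA), a kappa-B type site (GGGNNTTNCC) and the TATA box (TATAAA).
Cxcl9: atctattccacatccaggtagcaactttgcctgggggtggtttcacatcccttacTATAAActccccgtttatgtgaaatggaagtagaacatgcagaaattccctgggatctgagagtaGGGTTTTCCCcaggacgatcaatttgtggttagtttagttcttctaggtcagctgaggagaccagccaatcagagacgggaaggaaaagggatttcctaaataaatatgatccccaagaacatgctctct
Cxcl10: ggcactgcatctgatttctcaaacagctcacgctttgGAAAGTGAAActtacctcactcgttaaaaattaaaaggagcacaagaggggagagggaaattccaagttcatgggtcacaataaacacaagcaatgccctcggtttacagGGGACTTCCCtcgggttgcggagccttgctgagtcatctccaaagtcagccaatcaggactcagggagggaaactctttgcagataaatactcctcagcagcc
Ccl8: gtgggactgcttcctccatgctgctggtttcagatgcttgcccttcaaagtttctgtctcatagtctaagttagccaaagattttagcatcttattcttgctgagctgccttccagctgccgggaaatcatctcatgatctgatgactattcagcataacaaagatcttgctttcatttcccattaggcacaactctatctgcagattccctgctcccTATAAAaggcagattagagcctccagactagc
Ccr4: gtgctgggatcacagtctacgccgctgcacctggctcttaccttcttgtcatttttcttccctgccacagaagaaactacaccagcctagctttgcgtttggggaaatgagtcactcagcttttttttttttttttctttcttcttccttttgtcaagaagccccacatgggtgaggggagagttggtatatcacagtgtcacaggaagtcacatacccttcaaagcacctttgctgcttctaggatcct

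The Cxcl10 stretch held the response element letters as GAAAGTGAAA and the kappa-B letters as GGGACTTCCC, and the Cxcl9 stretch held kappa-B letters as GGGTTTTCCC. The TATA box letters lay 32 to 27 bases before the start of Ccl8 and 195 to 190 bases before that of Cxcl9. The Ccr4 stretch held none of the 4, and no 2 matches overlapped. Of all 32851 upstream stretches of this length in the RefSeq table, 2.98% held the response element letters, 7.02% the gamma-activated letters, 4.11% the kappa-B letters and 12.4% the TATA letters. A stretch was found for 40 of the 51 genes, under the current symbol where the array uses an older one. Among these 40, the counts in the same order were 2, 4, 9 and 13. A gene was counted if any of its stretches held the letters, whereas the percentages are per stretch, so the units differ. The response element letters were in the Cxcl10 and Cxcl14 stretches. Ccl5, Ccl2, Ccl4, Ccl7, Ccl11, Ccl24, Cxcl5, Cxcl11, Cxcl16 and Ccr10 were among the genes with no entry.

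Values are log2 ratios of the NOD mouse over the pool, positive where NOD was higher, taken at the gene's brightest probe, and the lowest, median and highest of the 8 mice are given with the mean ± SD. Processed signals are the intensities after the authors' background subtraction and dye normalization. Red signal was well above background on 21.6% to 35.3% of the spots of an array and green on 57.6% to 60.7%, and a spot that did not rise above background holds a stand-in value instead. The deposited ratio was 0 on 27.8% to 37.9% of spots. The grid was not rated as good by the software for replicates 5, 6 and 7, and replicates 1 to 4 and 5 to 8 lay on separate slides. All 8 acinar markers measured, genes of the enzyme-secreting cells that make up most of the pancreas, had red signal well above background on at least 4 arrays, as did 6 of 8 islet markers.

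Of the 51 chemokine genes, 21 had red signal well above background on at least 4 of the 8 arrays, and 22 had it on none. Green signal was well above background on all 8 arrays for 28 genes. The test needs a red processed signal of at least 25 on at least 4 arrays, which 45 of the 51 genes passed. The filter looks at the NOD channel only, so a weak gene that is high in NOD passes it more readily than a weak gene that is low. The 6 genes outside it were Ccl1, Ccl3, Ccl22, Cxcl1, Cxcl5 and Cxcl11. Cxcl15, Cxcl1 and Ccl22 were at a ratio of 0 in all 8 mice.

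**Figure D1:**
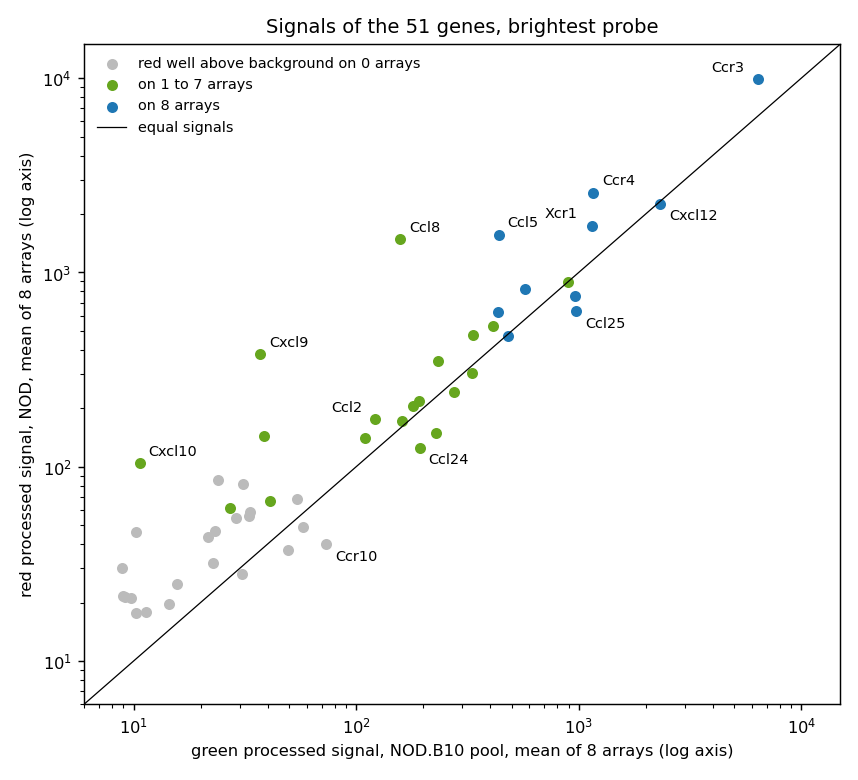
Mean processed signal over 8 arrays at the brightest probe of each of the 51 genes, green (NOD.B10 pool) on the horizontal axis and red (NOD) on the vertical axis, both on log scales; the line marks equal signals. Ccl8, Ccl5 and Cxcl9 stand well above the line, Ccr4, Ccr3 and Xcr1 lie above it at high signal, and the 22 gray genes had no array with red signal well above background.

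A gene was called changed at a difference of at least 2-fold with an adjusted p under 0.01 (limma's moderated one-sample test, Benjamini-Hochberg adjustment over all 28105 probes tested). By this rule 2 chemokine genes of 45 (4.44%) were higher in NOD, the ligand Ccl5 and the receptor Ccr4, where the background over all genes was 0.391%. None of the 45 was called lower, where the background was 1.30%; at an unadjusted limma p under 0.05, 18 of the 45 (40.0%) differed in either direction, where the background was 36.0%. With no filter on signal, all 51 entered the test and the same 2 genes were called. At an adjusted p under 0.05 and any size of change, written below as higher or lower, 9 genes were higher and the background was 7.01%. These were Ccl5, Ccl8, Cxcl9, Ccl11, Ccr4, Ccr3, Xcr1, Cxcr7 and Cmklr1. The 5 genes that were lower were Ccl24, Ccl25, Ccl27, Cxcl14 and Ccr10, and the background was 14.4%. Other scalings gave other counts at this threshold. By median-centered background-subtracted signals 25 of the 45 were higher and 4 lower, where the background was 26.1% and 19.1%. By the ratio of processed signals 19 were higher and 5 lower (background 19.9% and 16.8%), and by normexp and loess 11 were higher and 3 lower (background 6.51% and 13.9%). In the first of these, each dye of a weak spot is set to a floor of its own. A gene at background in red can then take a positive value. Cxcl15, with red a stand-in value on all 8 arrays, was at 2.66 there and at 1.97 by processed signals (limma adjusted p = 2.6e-07 and 0.000916). A small p at such a gene does not by itself show a difference in RNA. The median log2 ratio of the 45 genes was 0.22, compared to -0.08 over all 18396 genes tested.

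Ccl5 encodes RANTES, a ligand of CCR1 and CCR3, among other receptors, that is made by T-cells, among other cells. Its log2 ratio ranged from 0.71 (replicate 5) over a median of 1.51 to 2.46 (replicate 2), so that every mouse was above the pool. The mean was 1.62 ± 0.53 (SD, n = 8), a 3.07-fold difference with a 95% confidence interval from 2.30 to 4.10 (limma adjusted p = 0.00173). The exact sign-flip permutation test over all sign patterns of the 8 mice gave p = 0.00781, the smallest it can give. Red signal, well above background on all 8 arrays, was lowest in replicate 5 (403) and highest in replicate 2 (3910). The green signal of the same probe also ranged widely although the pool was the same RNA throughout, from 246 on the array of replicate 5 to 711 on that of replicate 2. The arrays with the highest and the lowest green signal were therefore those with the highest and the lowest red signal. The second probe, at chr11:83342140-83342195 (mm8), gave a mean of 2.26 ± 1.26 (n = 8, limma adjusted p = 0.0108), with replicate 5 at 0.00 and replicate 2 at 3.63. The brightest probe lay at chr11:83341989-83342048 (mm8).

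Ccl8 encodes MCP-2, which in the mouse acts through CCR8. Its mean, which holds 1 stand-in red signal in replicate 5, was 2.65 ± 1.54 (n = 8) and missed the call (limma adjusted p = 0.0125). The lowest value was -0.81 in replicate 5, the median 3.11 and the highest 4.13 in replicate 2. The other 7 mice were all above the pool, the next lowest being replicate 8 at 1.94. In terms of red signal, replicate 5 gave 74.9, a stand-in value, replicate 8 gave 439 and replicate 2 gave 3537. The green signal lay between 114 and 214 and was highest on the 3 arrays with the highest red signal, those of replicates 2, 4 and 6. The mean fold difference was 6.30 with a 95% confidence interval from 2.74 to 14.5, and the exact sign-flip permutation p was 0.0156. Without replicate 5, whose grid was not rated as good, the mean was 3.15 and Ccl8 passed the call (limma adjusted p = 0.00168). By normexp and loess the mean was 0.92, and Ccl8 was not higher at an adjusted p under 0.05 (limma adjusted p = 0.0549). The probe lay at chr11:81932801-81932860 (mm8).

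Cxcl9, Cxcl10 and Cxcl11 are the interferon-γ-induced ligands of CXCR3, a receptor of activated T-cells and NK cells. Cxcl9 was at a ratio of 0 in replicates 5 and 8, where red was a stand-in value, and between 2.87 and 4.07 in the other 6 mice, the highest being replicate 4. The 2 zeros mark spots without a usable ratio and do not show equal levels, but they enter the mean of 2.64 ± 1.66 and its test (n = 8, limma adjusted p = 0.0167). The mean was 3.42 by median-centered signals and 0.66 by normexp and loess (limma adjusted p = 2.5e-07 and 0.0188). Green signal of Cxcl9 was well above background on 5 arrays and red on 6. Red signal of Cxcl9 was 15.2 in replicate 5, 35.0 in replicate 8 and 737 in replicate 2, and green lay between 14.5 and 57.0.

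Cxcl10 had a usable red signal in 3 mice, replicates 2, 3 and 4. The deposited ratio was 4.27, 3.05 and 4.10 there and is listed as 0 in the other 5, where red was a stand-in value. Green was well above background on no array and a stand-in value on 6, so the ratios are set against a pool that was not measured, and neither a fold nor a mean is given. The red processed signal was 153, 79.3 and 193 in those 3 mice, and it reached 120 and 110 in replicates 6 and 7, above that of replicate 3. The zeros mark spots without a usable ratio and do not show equal levels. Cxcl11 was at 0 in 7 mice and at 0.49 in replicate 7, with no array well above background in either dye. The receptor Cxcr3 had red signal well above background on 2 arrays and gave -1.17, -0.20 and 1.70 as lowest, median and highest values (mean 0.12 ± 1.00, n = 8, limma adjusted p = 0.851). Its 3 positive mice were replicates 2, 3 and 4.

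Replicates 2 and 4 had the 2 highest values of Ccl5, Ccl8 and Cxcl9 among the 8 mice, and replicates 5 and 8 were the 2 lowest for Ccl5, Ccl8 and Cxcl9. The share of spots with red signal well above background was 35.3% for replicate 2, 33.2% for replicate 4, 27.2% for replicate 5 and 21.6% for replicate 8. Leukocyte marker lists also varied between mice, some of them over the same mice. The mean log2 ratio of 12 T-cell genes was highest in replicates 4 (1.07) and 2 (0.86) and lowest in replicate 5 (0.30), with 0.36 in replicate 1 and 0.42 in replicate 8. Of these 12 genes, 4 were higher (Cd3e, Cd3d, Cd5 and Lck) and none was lower, where the background was 7.01% higher and 14.4% lower, with a median of 0.39, and Cd2 and Cd28 had no array with red signal well above background. Summed over the 12 genes, red signal ranged from 5874 to 19291 and green from 4192 to 10042. The mean of 11 macrophage and monocyte genes was highest in replicate 2 (0.67) and lowest in replicates 8 (-0.14) and 5 (-0.13). That of 7 cytotoxic and NK cell genes was 0.94 in replicate 2, 1.34 in replicate 4 and -0.19 in replicate 5, and that of 3 plasma cell genes was 1.27, 1.52 and -0.57 in the same mice. Replicate 6 was high for both, at 1.13 and 1.82, the latter the highest value of the plasma cell list. Other lists went differently. The dendritic cell list was lowest in replicate 2 (0.12) and at 1.02 in replicate 5, the neutrophil list was lowest in replicate 4 (-0.36) and at 0.30 in replicate 5, and the B-cell list was highest in replicate 7 (1.00) and lowest in replicate 1 (-0.28). The part of leukocyte number, of any 1 of these cell types, or of array quality in the chemokine values was not tested.

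**Figure D2:**
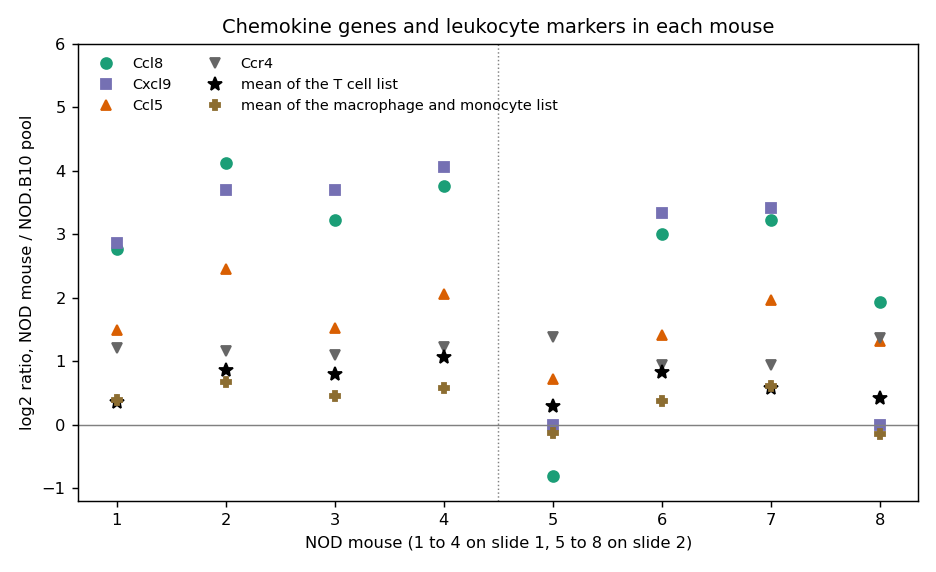
Log2 ratio of NOD mouse over NOD.B10 pool for Ccl8, Cxcl9, Ccl5 and Ccr4 in each of the 8 mice, with the means of the 12 T-cell and the 11 macrophage and monocyte genes as stars and crosses; the dotted line separates the slides. Ccl5, Ccl8, Cxcl9 and both marker lists are higher in replicates 2 and 4 than in replicate 5, whereas Ccr4 stays between 0.95 and 1.38 in all mice.

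Ccl2, Ccl7 and Ccl12 encode ligands of CCR2, the receptor of inflammatory monocytes. Ccl2 ranged from -0.90 in replicate 5 to 1.35 in replicate 2 with a median of 0.37 (mean 0.32 ± 0.72, n = 8, limma adjusted p = 0.402). All 4 mice of slide 1 were above the pool (mean 0.90) and 3 of 4 of slide 2 were below it (mean -0.26). Ccl7 and Ccl12 had means of 0.22 and 0.30 with red signal well above background on 0 and 1 arrays, and the dimmer probe of Ccl7 gave 0.86 (limma adjusted p = 0.132). Ccr2 gave a usable ratio in 2 mice, and no array had red signal well above background (mean 0.12, limma adjusted p = 0.569). By median-centered signals the means of Ccl7, Ccl12 and Ccr2 were 1.18, 1.24 and 1.02 (limma adjusted p = 0.000188, 0.00133 and 0.00521), and by normexp and loess none of these 3 passed, whereas Ccl2 did (0.15, limma adjusted p = 0.0358). Red was a stand-in value on 6, 4 and 6 arrays of Ccl7, Ccl12 and Ccr2, so their median-centered means rest in part on unmeasured red signal.

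Ccl11 (eotaxin-1) and Ccl24 (eotaxin-2) are ligands of CCR3, the receptor of eosinophils, and their means lay on opposite sides of the pool, each near the threshold. Ccl11 was higher, with values from -0.10 over a median of 0.45 to 1.28 in replicate 7 and 7 of 8 mice above the pool. The mean was 0.55 ± 0.44, a 1.46-fold difference with an interval from 1.15 to 1.86 (n = 8, limma adjusted p = 0.0385). Ccl24 was lower at its brightest probe, from -1.70 in replicate 4 over -0.83 to 0.19 in replicate 5, with 7 of 8 mice below the pool (mean -0.70 ± 0.60, n = 8, limma adjusted p = 0.0476). Neither passed by normexp and loess (0.10 for Ccl11 and -0.057 for Ccl24, limma adjusted p = 0.138 and 0.318), by median-centered signals (0.24 and -0.57, limma adjusted p = 0.314 and 0.0625) or by the plain one-sample statistic (adjusted p = 0.0565 and 0.0687), and Ccl24 did not pass with slide as a covariate (limma adjusted p = 0.0571). At its dimmer probe, chr5:135855424-135855483 (mm8), all 8 mice were below the pool and the mean of -1.42 ± 0.69 (n = 8) passed the call (limma adjusted p = 0.00651). Red was a stand-in value on 3 arrays there and well above background on none, so the size of that difference rests on red signals near background, and by normexp and loess it was -0.038 (limma adjusted p = 0.395). Among the eosinophil and mast cell markers, 6 of the 7 measured had no array with red signal well above background.

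Along chromosome 11, on which 11 CC ligand genes of the set lie in 2 clusters, Ccl8 and Ccl5 had the highest means. In the first cluster, from chr11:81853343-81853402 (Ccl2) to chr11:81993029-81993088 (Ccl1, mm8 probe positions), the order was Ccl2, Ccl7, Ccl11, Ccl12, Ccl8 and Ccl1. Their means were 0.32, 0.22, 0.55, 0.30, 2.65 and 0.00. In the second cluster, up to chr11:83480745-83480804 (mm8), Ccl5 at 1.62 was followed by Ccl9 (0.42), Ccl6 (0.39), Ccl3 (0.01) and Ccl4 (0.74). Ccl6 had red signal well above background on all 8 arrays and Ccl9 on 7, but neither passed (limma adjusted p = 0.174 and 0.0914). With slide as a covariate both did (limma adjusted p = 0.0192 and 0.0478), the slide means being 0.84 and -0.06 for Ccl6 and 0.70 and 0.15 for Ccl9. By median-centered signals Ccl6 was at -0.054 and by normexp and loess at 0.091, passing in neither (limma adjusted p = 0.892 and 0.673). Ccl9 passed in both, at 0.62 and 0.30 (limma adjusted p = 0.0171 and 0.0253). Ccl4, which encodes MIP-1β, was above the pool in the 4 mice of slide 1, from 0.44 to 2.20, and had no usable ratio in the 4 mice of slide 2, where red was a stand-in value and the ratio is listed as 0. With these zeros its mean did not pass (limma adjusted p = 0.141), whereas it was 1.31 by processed signals and 1.45 by median-centered signals (limma adjusted p = 0.0019 and 0.00015), both past the call, and 0.077 by normexp and loess (limma adjusted p = 0.182). With slide as a covariate Ccl4 was at an adjusted p of 0.0253 in limma, but the 4 equal zeros of slide 2 add no spread to that fit. On slide 1 the mean of Ccl4 was 1.48, compared to 1.88 for Ccl5. Red was well above background on no array of Ccl4. Ccl3 and Ccl1 did not reach the minimum signal.

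Cxcl12, Cxcl14, Ccl25, Ccl27 and Ccl28 are described together for their known sources in stroma and epithelia, a grouping made after their values were seen. Cxcl12, a stromal ligand of CXCR4, had the highest mean red signal of the ligands (2251). It lay between -0.54 and 0.52 with a median of -0.06, and 5 mice were below the pool (mean -0.07 ± 0.32, n = 8, limma adjusted p = 0.673). The interval of its fold difference ran from 0.799 to 1.13. By normexp and loess, however, Cxcl12 was lower (-0.41, limma adjusted p = 0.033), and its dimmer probe gave -0.60 (limma adjusted p = 0.154). Cxcl14, a ligand made by epithelia, was lower in 7 of 8 mice, from -0.55 over -0.35 to 0.11 (mean -0.34 ± 0.22, n = 8, limma adjusted p = 0.0188). Ccl25, the ligand of the gut-homing receptor CCR9, was lower, from -1.56 in replicate 7 over -0.72 to 0.10 in replicate 1 (mean -0.71 ± 0.53, n = 8, limma adjusted p = 0.0304). Its slide means were -0.39 and -1.03. Ccl27, which acts on CCR10 and is best known from skin, was lower in all 8 mice, from -1.35 over -0.70 to -0.10 (mean -0.66 ± 0.43, n = 8, limma adjusted p = 0.0186). Red signal of Ccl27 was well above background on 2 arrays, and by normexp and loess its mean was -0.11 and did not pass (limma adjusted p = 0.0671). Ccl28, the other ligand of CCR10, had no such array (mean -0.35 ± 0.73, n = 8, limma adjusted p = 0.364).

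Cxcl16 and Cx3cl1 are made as membrane-bound proteins on cells such as macrophages and endothelium. Cxcl16 averaged 0.09 ± 0.52 and Cx3cl1 -0.37 ± 0.97 (n = 8, limma adjusted p = 0.758 and 0.479). Cxcl16 was above the pool in the 4 mice of slide 1 and below it in 3 of 4 on slide 2. By median-centered signals and by normexp and loess Cxcl16 was higher (0.58 and 0.16, limma adjusted p = 0.0325 and 0.0478). Cx3cl1 was between 0.11 and 0.51 in 5 mice and reached -2.44 in replicate 6. Ccl20, the ligand of CCR6, was above the pool in 6 mice and up to 2.20, with a mean of 0.82 ± 0.76 (n = 8, limma adjusted p = 0.0596), but it had no array well above background in either dye. Ccl20 passed by processed signals (0.90, limma adjusted p = 0.0112), by normexp and loess (0.13, limma adjusted p = 0.0206) and by median-centered signals (2.40, limma adjusted p = 9.2e-06). Of the platelet chemokines, Cxcl4 averaged -0.04 ± 0.28 (n = 8, limma adjusted p = 0.845). By median-centered signals, however, Cxcl4 was lower (-0.89, limma adjusted p = 0.0160), and by normexp and loess it was at -0.30 (limma adjusted p = 0.0621). Cxcl7 was at 4.11, 2.75 and 1.98 in replicates 3, 6 and 7 and between -0.57 and -0.22 in the others (limma adjusted p = 0.371). Red and green signal of Cxcl7 were each well above background on 3 arrays, and green was 16.5 in replicate 3, so the size of its ratio there is uncertain. Cxcl1, Cxcl2, Cxcl5 and Cxcl15, ligands that attract neutrophils, had no array with red signal well above background.

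Among the receptors, Ccr4 was the one called. CCR4 is carried by type 2 helper, regulatory and skin-homing T-cells and binds CCL17 and CCL22. Its ratio was 0.95 in the lowest mouse, 1.18 at the median and 1.38 in the highest (replicate 5), so that all 8 mice were above the pool within a narrow range. The mean was 1.17 ± 0.17, a 2.25-fold difference with an interval from 2.05 to 2.47 (n = 8, limma adjusted p = 0.000168). The exact sign-flip permutation p was 0.00781. Ccr4 did not follow the ligands described above, since replicate 5, the lowest for Ccl5 and Ccl8, was its highest mouse. Red signal was between 1443 and 3647 and green between 558 and 1585 at this probe, chr9:114340371-114340430 (mm8).

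A second Ccr4 probe, chr9:114340341-114340400 (mm8), shares 30 of its 60 bases with the first, and its ratio was 0 on all 8 arrays. Both dyes were stand-in values on every array there. The mean signals were 44.8 (red) and 9.73 (green), compared to 2578 and 1161 at the first probe. The ratio of 0 at the second probe is the value the image software writes when both dyes are stand-ins, and other processing gave other values there: the mean log2 ratio was 2.76 by median-centered background-subtracted signals (limma adjusted p = 2.5e-07), 2.02 by the ratio of processed signals (limma adjusted p = 0.000953) and 0.015 by normexp and loess (limma adjusted p = 0.771). The second probe therefore gave no usable reading of Ccr4, and the call rests on 1 probe. The signals of the 2 overlapping probes disagree, and whether the bright probe also binds other transcripts was not checked, since probe sequences were not used here. Of its ligands, Ccl22 was at 0 in all mice, and Ccl17 averaged 0.09 ± 0.62 (n = 8, limma adjusted p = 0.812), with no array of either well above background in red.

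Ccr3 and Xcr1 were higher by less than 2-fold. Ccr3 had the highest red signal of all 51 genes (mean 9858), its green signal ranged from 1841 in replicate 7 to 8719 in replicate 5, and it was above the pool in all 8 mice, from 0.42 over 0.58 to 0.98 in replicate 8. The mean of 0.66 ± 0.22 was a 1.58-fold difference with an interval from 1.39 to 1.78 (n = 8, limma adjusted p = 0.00211). The second Ccr3 probe, at chr9:123879291-123879350 (mm8), was below the pool in 6 mice and above it in 1 (mean -0.56 ± 0.69, n = 8, limma adjusted p = 0.139), with mean signals of 100.1 in red and 126.8 in green. That probe was lower by median-centered signals (-1.19, limma adjusted p = 0.0013) and by normexp and loess (-0.14, limma adjusted p = 0.0270). Red was a stand-in value there on 6 arrays. The brightest probe lay at chr9:123878142-123878201 (mm8).

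Xcr1 encodes the receptor for XCL1 on cross-presenting dendritic cells. Its green signal ranged from 553 in replicate 8 to 1805 in replicate 6. Its ratios ran from 0.36 over 0.50 to 0.97 in replicate 7, with all 8 mice above the pool (mean 0.58 ± 0.20, n = 8, limma adjusted p = 0.00242). The second Xcr1 probe stayed under the minimum signal, with stand-in values in red throughout. Ccr4, Ccr3 and Xcr1 thus each had 1 bright probe with a small spread between mice and a second, dim probe with red signal well above background on none of the 8 arrays. Xcl1, the ligand, had usable ratios in 3 mice (mean 0.37, limma adjusted p = 0.275). Its mean was 2.44 by median-centered and 0.68 by processed signals (limma adjusted p = 5.6e-06 and 0.0112), with red a stand-in value on 5 arrays. By normexp and loess it was 0.065 and did not pass (limma adjusted p = 0.130).

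**Figure D3:**
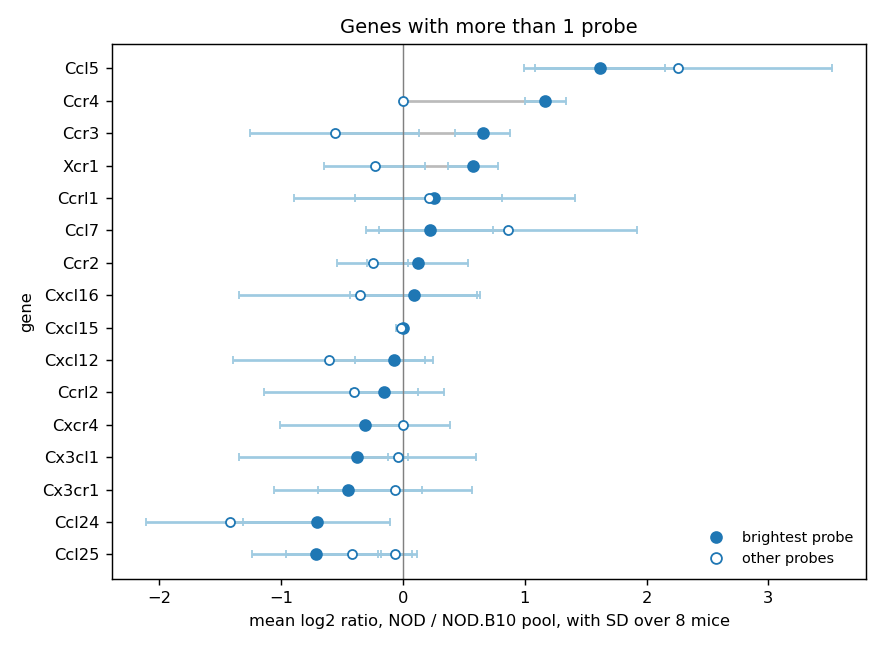
Mean log2 ratio with SD over 8 mice for every probe of the 16 genes with more than 1 probe; filled circles are the brightest probe. The probes of Ccl5 and of Ccl24 lie on the same side of 0, while those of Ccr4, Ccr3 and Xcr1 are separated.

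Of the 16 genes with more than 1 probe, 11 had at least 2 probes that entered the test. The means had opposite signs in 2 of them, Ccr3 and Cxcl16. Both probes of Ccl5 and both of Ccl24 were on the same side of the pool. Ccl25 had 3 probes with means of -0.71, -0.42 and -0.06, in the order of their brightness.

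Cxcr7 encodes a scavenger receptor that takes up CXCL11 and CXCL12. It was higher in 7 of 8 mice, from -0.01 over 0.46 to 0.91 (mean 0.50 ± 0.31, n = 8, limma adjusted p = 0.0166). All 4 mice of slide 1 (mean 0.76) were above all 4 of slide 2 (mean 0.25). Cmklr1, the receptor for the attractant chemerin, was higher in 7 of 8 mice (mean 0.30 ± 0.25, n = 8, limma adjusted p = 0.0481), but it did not pass with slide as a covariate (limma adjusted p = 0.0536), by processed signals (0.0607) or by normexp and loess (mean 0.032, limma adjusted p = 0.701), and its mean was -0.12 by median-centered background-subtracted signals. Rarres2, the chemerin gene, was at 0.04 (limma adjusted p = 0.811). Ccr10 was the lone receptor that was lower. It was below the pool in all 8 mice, from -1.39 over -1.12 to -0.03 in replicate 5 (mean -0.97 ± 0.43, n = 8, limma adjusted p = 0.00485). Green signal of Ccr10 was well above background on all 8 arrays and red on none. Without replicate 5 the mean was -1.11 (limma adjusted p = 0.00146), which passed the call, whereas it was -0.38 by median-centered signals and -0.014 by normexp and loess, where Ccr10 did not pass (limma adjusted p = 0.102 and 0.657).

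The remaining receptors did not pass the test on the deposited ratios. Cxcr6, the receptor for CXCL16 on effector T-cells, was highest in replicate 2 at 2.43 and otherwise at most 0.91 (mean 0.70 ± 0.81, n = 8, limma adjusted p = 0.117). Red signal was well above background on 1 array for Cxcr6. By processed signals its mean was 0.97 and by median-centered signals 1.72 (limma adjusted p = 0.00963 and 6.7e-05), and by normexp and loess it was 0.10 and did not pass (limma adjusted p = 0.0962). Ccr9 ranged from -0.24 to 0.44 with red signal well above background on all 8 arrays (mean -0.05 ± 0.22, limma adjusted p = 0.653), and the interval of its fold difference ran from 0.853 to 1.09.

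Ccr6, the receptor for CCL20 and, by the positions in the files, the lone gene of the 51 on chromosome 17, which carries H2, averaged 0.13 ± 0.58 (n = 8, limma adjusted p = 0.670). Ccr1, Ccr8, Cx3cr1 and Cxcr4 had no array with red signal well above background and means of -0.10, -0.02, -0.45 and -0.31 (limma adjusted p from 0.168 to 0.965). With red near background, these values do not show equal levels, and 3 of them passed by median-centered signals, Ccr1 at 1.63, Ccr8 at 1.38 and Cxcr4 at 1.02 (limma adjusted p = 0.00113, 6.8e-05 and 0.00274), but not by normexp and loess. Red was a stand-in value on 8, 7 and 7 arrays of these 3, so their median-centered values rest on unmeasured red signal. Ccr1l1, Ccrl1 and Ccrl2, which have no partner in the pairs below, averaged -0.22, 0.26 and -0.15 (limma adjusted p from 0.310 to 0.673). Ccrl1, with red a stand-in value on 6 arrays, was at 2.07 by median-centered and 1.18 by processed signals (limma adjusted p = 0.000288 and 0.0226). By normexp and loess Ccrl1 was at 0.049 (limma adjusted p = 0.210). Ccrl2 was at 0.19 by median-centered signals (limma adjusted p = 0.471).

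**Figure D4:**
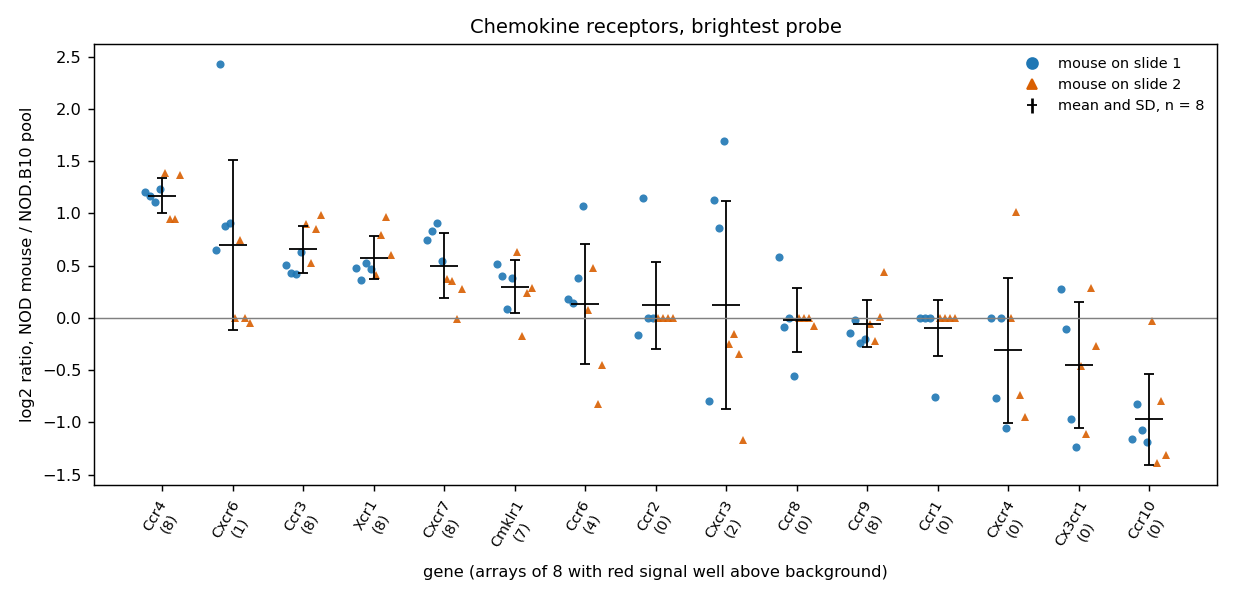
Log2 ratio of NOD mouse over NOD.B10 pool for 15 receptors, drawn as for the ligands, with the mean and SD (n = 8) and, in brackets, the arrays with red signal well above background. Ccr4, Ccr3 and Xcr1 have all 8 mice above 0 and narrow spreads, and Ccr10 has all 8 below 0.

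Ligands were then set beside their receptors in 32 known pairs of 25 ligands and 15 receptors. In 17 of the pairs the receptor had no array with red signal well above background. Ligand and receptor were both at an adjusted p under 0.05 in 4 pairs. Ccl5 and Ccl11 were higher with Ccr3, Ccl27 was lower with Ccr10, and Ccl24 was lower while Ccr3 was higher. The ligand alone passed in 5 pairs, among them Ccl8 with Ccr8 and Cxcl9 with Cxcr3, and the receptor alone in 7, among them both pairs of Ccr4. Neither passed in 16.

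Both genes had red signal well above background on at least 4 arrays in 4 pairs, and these were compared mouse by mouse. For Ccl5 and Ccr3, Pearson's r was -0.46 (exact permutation p = 0.259, n = 8) and Spearman's rho -0.55 (exact permutation p = 0.171, n = 8). For Ccl11 and Ccr3 r was 0.03 and rho -0.19, for Ccl25 and Ccr9 r was 0.11 and rho 0.07, and for Cxcl12 and Cxcr7 r was 0.11 and rho 0.17. The 8 exact permutation p-values, of r and of rho, were all at least 0.171, and at least 0.684 after Benjamini-Hochberg adjustment over the 4 pairs. Without the 2 mice farthest from the ligand's median, r was 0.08, -0.64, 0.50 and -0.34 in this order. With the slide means subtracted, r was -0.11 for Ccl5 and Ccr3, -0.0090 for Ccl11 and Ccr3, 0.63 for Ccl25 and Ccr9 (exact permutation p = 0.0823, n = 8) and 0.46 for Cxcl12 and Cxcr7, and every adjusted p was at least 0.329. Within a single slide r was not computed, since 4 mice are too few.

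Genes that work with the chemokine receptors were read from 4 further lists, whose counts stand against a background over all genes of 7.01% higher and 14.4% lower at an adjusted p under 0.05. Of 22 tested genes of receptor signaling, 4 were higher and 1 lower, with a median log2 ratio of 0.16. The list's called gene was Was, which encodes the actin regulator of blood cells that is missing in Wiskott-Aldrich syndrome (1.48 ± 0.34, n = 8, limma adjusted p = 0.000478). Rac2, a GTPase of leukocyte migration, and Coro1a, an actin-binding protein of leukocytes, were also higher (0.78 ± 0.34 and 1.29 ± 0.83, n = 8, limma adjusted p = 0.00441 and 0.0182). Rgs14 was higher and the β-arrestin gene Arrb1 was lower (0.92 and -0.23, limma adjusted p = 0.0371 and 0.0179), with no array of Rgs14 well above background in red.

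Of 9 tested leukocyte adhesion genes, 2 were higher and none lower. Vcam1, the endothelial ligand of the integrin VLA-4, was called (1.13 ± 0.41, n = 8, limma adjusted p = 0.00252), and Selp, which encodes P-selectin, was at 0.46 ± 0.29 (n = 8, limma adjusted p = 0.0179). Icam1 was at 0.09 ± 0.50 (n = 8, limma adjusted p = 0.760). The endothelial marker list went the other way, with 5 of 7 genes lower, none higher and a median of -0.43.

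Of 16 tested cytokines and factors that induce chemokines, 2 were higher and 1 lower. Ltb, which encodes lymphotoxin-β, was called (1.44 ± 0.54, n = 8, limma adjusted p = 0.00271), Tnf was at 0.29 ± 0.24 (n = 8, limma adjusted p = 0.0476) with no array well above background in red, and Lta was lower (-0.26, limma adjusted p = 0.0235), also with no such array. Ifng was at 0.66 ± 0.78 (n = 8, limma adjusted p = 0.123) with no array well above background in red. Irf1, a transcription factor induced by interferon-γ, was at 0.21 ± 0.47 (n = 8, limma adjusted p = 0.402) and was well above background in red on all 8 arrays. Of 9 tested genes on a list of chemokine-binding receptors under other names, with the chemerin gene and some Cmtm genes, 1 was higher (Cxcr7, also counted above) and 2 were lower. These were Ccbp2, a decoy receptor for CC chemokines (-1.11 ± 0.73, n = 8, limma adjusted p = 0.0193, red well above background on no array), and Cmtm7 (-0.43 ± 0.24, n = 8, limma adjusted p = 0.0109). The Cmtm genes encode neither chemokines nor chemokine receptors.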

How the data were processed

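Pancreas RNA of 8 NOD mice was compared with a pool of NOD.B10 RNA on Agilent 4x44K two-color arrays. Values were extracted by the authors with Agilent Feature Extraction, version 10.7.3.1 per the submitters' processing notes. The deposited measures are a log10 ratio (red to green) for each spot, signal intensities of each dye before and after background subtraction and normalization, and flags for signals well above background, stand-in values and irregular spots. Symbols and probe positions (mm8) are the files' own.

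Ratios were put on the log2 scale (times 3.322) and averaged over the spots of a probe. Probes with a symbol that reached 25 in red on at least 4 arrays were tested with limma 3.58.1 (R 4.3.3), and the probe brightest over both dyes stands for its gene. Alternatives were other statistics, filters, normalizations and thresholds, slide as covariate, array weights, other probes and each mouse left out. Fits by slide, and without the arrays of poor grid, were chosen after seeing the data. On simulated data, 124 of 200 probes changed 3-fold were recovered among 28105, with 1 false call. Python 3.11.15 (numpy 2.4.6, pandas 2.3.3, scipy 1.17.1, matplotlib 3.10.9) served for exact tests and plots.

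Members, lists and tests were chosen with earlier results of these data known. Named are genes with any probe at an adjusted p under 0.05, their known partners, and 16 genes of well-known pairs; others appear with their family. The values of some genes, though counted, are not reported here. Genes of the pathway lists were named after their values were seen. Arrays are separate mice, but no source used here says whether they were littermates, and the number of arrays limits the precision.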

Additional observations from a re-analysis of the deposited data

Results flagged for a closer look

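In 10 of 35 genes, 1 mouse stood apart from the other 7 by more than Dixon's 95% limit, and chance flags about 1 in 20 groups. That rate does not hold for 5 of the 10, Ccr1, Cxcl11, Ccr2, Ccl7 and Xcl1, in which the ratio was exactly 0 in 5 to 7 mice, since among tied zeros a usable ratio stands apart more readily. The values are log2 ratios at the brightest probe. Ccl8 was at -0.81 in replicate 5, the lowest of the 8 mice, and Ccr10 at -0.032 in the same mouse, the highest. Replicate 5 had a grid that was not rated as good. Replicate 2 stood highest for Ccl7 (1.42), Ccr2 (1.14) and Cxcr6 (2.43), and replicate 7 for Cxcl11 (0.49) and Cxcl14 (0.11). Ccr9 was at 0.44 in replicate 8, Xcl1 at 1.83 in replicate 6 and Ccr1 at -0.76 in replicate 4.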

How the results depend on the processing

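The 2 calls, Ccl5 and Ccr4, were made under the plain statistic, with no signal filter, with irregular spots left out and without each mouse in turn. Chemokine genes called higher numbered 4 (with Ccl8 and Cxcl9) with red well above background on at least 4 arrays, with slide as a covariate, with array quality weights and at an adjusted p under 0.05. They numbered 8 by the ratio of processed signals, 20 by median-centered background-subtracted signals, 0 by normexp and loess (where Ccr4 was at 0.99 and Ccl5 at 0.73), 1 (Ccr4) without the arrays of poor grid, and 0 on slide 1 or slide 2 alone, each a fit of 4 arrays. The count called lower was 1 at 1.5-fold (Ccr10) and 1 over any probe (Ccl24), and 0 to 1 with a mouse left out. Over all probes, 484 were called in the main setting. The count was 308 by the plain statistic, 133 with red well above background on at least 4 arrays, 7248 by median-centered signals, 4160 by processed signals, 87 by normexp and loess, 919 at an adjusted p under 0.05, 1109 at 1.5-fold, 39 without the arrays of poor grid, 0 on slide 1, 3 on slide 2 and 243 to 336 with a mouse left out. The share higher was 87 of 484 in the main setting, 5976 of 7248 by median-centered signals, 3470 of 4160 by processed signals, 91 of 133 with red well above background on at least 4 arrays and 61 of 87 by normexp and loess. The cause of these shifts was not tested.

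Median-centered signals put the median log2 ratio of all genes at 0.02, compared to -0.08. Among the 34 named genes that were tested, signs of mean log2 ratios changed as follows. By median-centered signals Ccl28 was 0.090, Ccr1 1.63, Ccr6 -0.25, Ccr8 1.38, Cmklr1 -0.12, Cx3cr1 0.57, Cxcr3 -0.17 and Cxcr4 1.02. By processed signals Ccr1 was 1.74 and Ccr8 0.54. By normexp and loess Ccl28 was 0.0074, Cx3cr1 0.027 and Cxcr4 0.0013. On slide 1 Ccl17 was -0.065 and Cx3cl1 0.24, and on slide 2 Ccl2 was -0.26, Ccr6 -0.18, Ccr9 0.044, Cxcl16 -0.32 and Cxcr3 -0.48. Without the arrays of poor grid Ccl17 was -0.086 and Cx3cl1 0.22. The other probes of Ccr3 and Cxcl16 gave -0.56 and -0.35. With a mouse left out, Ccl17 ranged from -0.073 to 0.19, Ccr2 from -0.023 to 0.16, Ccr6 from -0.0033 to 0.27, Ccr8 from -0.10 to 0.060, Cxcl16 from -0.014 to 0.20 and Cxcr3 from -0.10 to 0.31. Of 742 values for 34 genes, 676 kept their side of the threshold without a change of sign, means of exactly 0 included. Of the rest, 9 lost the call, 25 gained it and 32 changed sign. No correlation of the 4 ligand-receptor pairs passed an adjusted p under 0.05 with slide means subtracted or by normexp and loess. No paired analysis was possible because the arrays form 1 group. Precision is limited by red signal, which was well above background on no array for 22 of the 51 genes.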

Other observations

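Leukocyte markers other than those of T-cells were tested in the same fit, and none was called. The counts below stand against 7.01% higher and 14.4% lower over all genes. Of 11 macrophage and monocyte genes, 2 were higher at an adjusted p under 0.05 and none lower (median log2 ratio 0.29). The 2 were C1qb, a complement subunit made by macrophages (0.86 ± 0.31, n = 8, limma adjusted p = 0.00237), and Mpeg1, the gene of the pore-forming protein perforin-2 (0.80 ± 0.51, n = 8, limma adjusted p = 0.0168). Of 4 tested dendritic cell genes 2 were higher, and of 3 tested plasma cell genes 1 was higher. None of 10 B-cell, 7 cytotoxic and NK cell and 5 neutrophil genes tested was higher or lower. Red signal was well above background on no array for 8 of the 10 B-cell genes. The same held for 7 of 10 cytotoxic and NK cell genes and 4 of 8 neutrophil genes on the array. For such genes the result does not show equal levels. Of 4 tested eosinophil and mast cell genes none was higher and 1 was lower, with a median of -0.16. This was Mcpt4, a mast cell protease gene (-1.26 ± 0.82, n = 8, limma adjusted p = 0.0183), with red well above background on no array. Of the 4 lymphoid chemokine genes that the name rule left out, 1 was higher and none lower, with a median of 0.57. Of 6 tested liver genes, 5 were lower and 4 of these were called, with a median of -2.26. Fgg, a fibrinogen chain gene, was at -4.00 ± 0.57 (n = 8, limma adjusted p = 0.000168), with red well above background on no array. The size of that difference therefore rests on red signals near background. Red signal of the list summed to between 354 and 918, compared to between 2548 and 3502 in green.

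Green signal, from the same pool on every array, was highest on the arrays with the highest red signal at the probes of Ccl8, Cxcl9 and Ccl5. For Ccl8 the 3 arrays with the highest red signal were replicates 2, 4 and 6 (3537, 2512 and 1715), and these had the highest green signal (203, 186 and 214). For Cxcl9 the 3 arrays with the highest red signal, replicates 2, 4 and 6 (737, 718 and 579), were also the 3 with the highest green signal (56.7, 42.8 and 57.0). For Ccl5 the same 3 arrays had the highest red signal (3910, 2488 and 1538) and the highest green signal (711, 595 and 575), and its second probe had its highest green signal there as well (80.1, 72.7 and 80.0). The bright receptor probes varied in both dyes too. Green was lowest on the 2 arrays with the lowest red signal for Ccr3 (1841 and 2346 in green, 3316 and 4635 in red), and the lowest green signal of Ccr4 (558) and of Xcr1 (553) was on the array with their lowest red signal (1443 and 841), replicate 8. The cause was not tested.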
